A study of Homo sapiens with 12 samples.

Results

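RCC4 cells, an established line from a human clear cell renal carcinoma, were compared directly after silencing of MESH1 and after silencing of ATF4. The comparison used the 3 arrays titled as MESH1-silenced (siMESH1) and the 3 titled as ATF-silenced, whose descriptions name ATF4 (siATF4), which are 6 of the 12 arrays of the study. The other 6 arrays were 3 with a non-targeting siRNA (siNT) and 3 with both targets silenced (siMESH1+siATF4), and all entered the fit. The siNT arrays also served to place genes against the control and to choose those with opposite or shared changes. The siMESH1+siATF4 arrays were only set beside genes that differed directly. Each culture was given 40 pmol of siRNA and collected after 72 h. MESH1 was silenced with a single siRNA and ATF4 with a pool of siRNAs. No other MESH1 siRNA was used on these arrays, so loss of MESH1 cannot be told apart from an effect of that siRNA on other transcripts. In its own signature, the paper classed genes that siATF4 alone altered as off-target and left them out. Its stated ground was low ATF4 expression in RCC4 cells without stress. They are kept here, so loss of ATF4 cannot be told apart from effects of the pool on other transcripts. The labels call the 3 arrays of a group biological replicates. The values are log2 signals relative to the siNT mean of the same probe set. They hold differences and no level, so whether a renal marker is present cannot be read from them.

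MESH1, whose gene symbol is HDDC3, is a cytosolic phosphatase of NADPH and the animal relative of bacterial enzymes that hydrolyse the alarmone (p)ppGpp. ATF4 is the transcription factor of the integrated stress response. Its translation is favoured when eIF2α is phosphorylated, and it drives genes of amino acid synthesis, amino acid transport and tRNA charging, together with stress regulators such as CHOP (DDIT3) and TRIB3.

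Both silencings moved the transcriptome, but not in the same way. Of 11963 genes tested, 1036 (8.66%) differed between the siMESH1 and siATF4 arrays. A gene was called when its limma p, adjusted by Benjamini-Hochberg over all genes, was below 0.05 and its log2 difference reached 0.5, which is 1.41-fold. Of the called genes, 468 (3.91% of those tested) were higher in siMESH1 and 568 (4.75%) were lower. Differences of at least 1 were found for 165 of them, 57 higher and 108 lower in siMESH1. The arrays of the groups did not overlap for 1034 of the 1036 called genes, a separation that 45.6% of all genes showed (siMESH1 higher in 22.1%, lower in 23.5%). The median difference over all genes was 0.0026 and the median standard error of a difference was 0.0704.

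The division into higher and lower depended on the scale. The mean of 12 housekeeping genes was 0.18 lower in siMESH1 than in siATF4. Centring each array on that mean added 0.18 to every difference and gave 1026 genes higher and 302 lower. Among the 12, the transferrin receptor TFRC was itself called lower (-1.20) and YWHAZ, a 14-3-3 protein, called higher (0.51). Without TFRC the shift was 0.091 and the division 693 higher and 406 lower, and without both it was 0.15, with 896 higher and 336 lower, alternatives chosen after seeing the data. Centring on the array median instead left 459 higher and 583 lower. No called gene turned its direction under any of these scalings, but lower calls within 0.18 of the fold minimum were lost under the housekeeping scale. A list median between -0.18 and 0 becomes positive on that scale. The differences below are on the deposited scale.

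**Figure D1:**
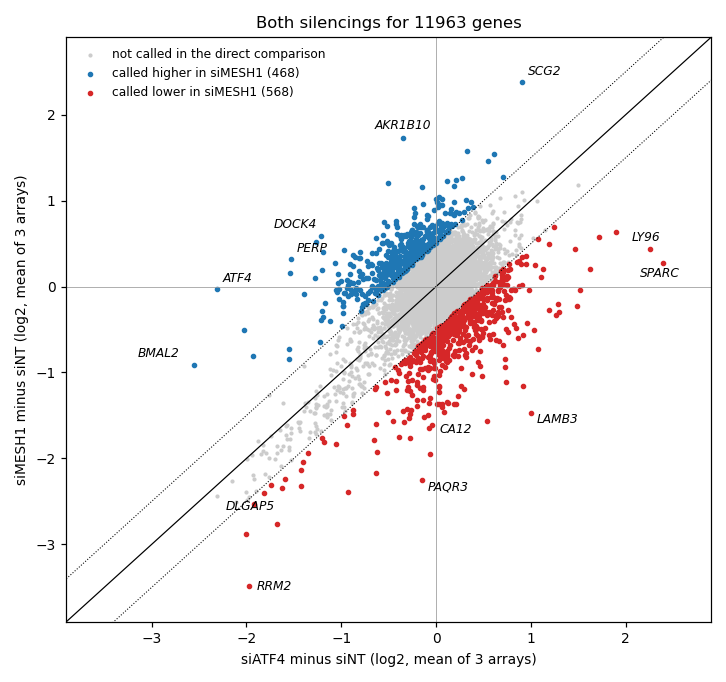
Each point is a gene, with its difference from the siNT mean in siATF4 on the horizontal axis and in siMESH1 on the vertical axis (log2, means of 3 arrays). Blue points were called higher in siMESH1 than in siATF4 (468 genes) and red points lower (568 genes), the solid line marks equal values and the dotted lines a difference of 0.5, and both axes share the siNT arrays. ATF4 and BMAL2 lie far left of the line, whereas LAMB3 and SPARC lie far right of it.

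The 3 siMESH1 and 3 siATF4 arrays also differed in measures that are not genes of interest. The mean of 18 hybridisation spike-in probe sets was -0.023 in siMESH1 and 0.25 in siATF4, and the arrays did not overlap (two-sided exact test over permuted arrays, p = 0.1, below which 3 arrays against 3 cannot go, and 0.25 when adjusted over 5 checks). The same exact test gave p = 0.1 for the housekeeping mean, p = 0.2 for the 3' minus 5' signals of ACTB and of GAPDH, which reflect RNA quality, and p = 0.9 for the array median. Leukocyte and endothelial markers, which a carcinoma line should lack, held 0 limma calls among 15 genes, against 8.66% of all genes. They held 0 by the methods' t-test with the same minimum, although 4 had an unadjusted limma p under 0.05. Their median difference was -0.0012. The part of these measures in the differences below was not tested.

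The target ATF4 gave the largest positive difference. Its signal in the siMESH1 arrays was -0.015, -0.10 and 0.035, at the control level, against -2.29, -2.33 and -2.30 in the siATF4 arrays. The groups were far apart, by 2.28 on the log2 scale (4.86-fold, 95% interval 2.13 to 2.43, limma adjusted p = 8.9e-10). HDDC3 had 0 probe sets with its symbol alone, so the silencing of MESH1 could not be checked on these arrays.

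Among the 15 largest differences in favour of siMESH1, 13 had siATF4 arrays that were called below siNT, and 5 had siMESH1 arrays that were called above it. AKR1B10, an NADPH-dependent aldo-keto reductase, read 1.71, 1.78 and 1.71 in siMESH1 and -0.33, -0.24 and -0.49 in siATF4. It was high in all 3 siMESH1 arrays and slightly below the control in all 3 siATF4 arrays, a difference of 2.09 (4.25-fold, SE 0.0682, adjusted p = 1e-09). PERP, a membrane protein of desmosomes and a p53 effector, read 0.27, 0.30 and 0.38 in siMESH1 and -1.38, -1.56 and -1.67 in siATF4. Its siMESH1 arrays were not called against siNT, and the difference was 1.85 (SE 0.0819, adjusted p = 6.7e-09), of which 0.32 lay above the control in siMESH1 and the rest below it in siATF4 (-1.53). DOCK4, an activator of Rac GTPases, differed by 1.80, RCBTB1 by 1.78 and the Ras-like GTPase DIRAS2 by 1.71. These 3 genes were called above siNT in siMESH1 and below it in siATF4.

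BMAL2, a transcription factor of the circadian clock, was reduced by both silencings. Its arrays read -1.07, -0.81 and -0.87 in siMESH1 and -2.52, -2.64 and -2.49 in siATF4. All 6 lay below the control, the siATF4 arrays by far the lower, and the direct difference was 1.63 (SE 0.0992, adjusted p = 8e-08). SCG2, a granin of secretory granules, stood on the other side of the control. Its arrays read 2.28, 2.42 and 2.44 in siMESH1 and 0.78, 0.98 and 0.96 in siATF4, so that both silencings raised it and siMESH1 did so by 1.47 more (adjusted p = 1.3e-07). The remaining genes of this group were TMEM50A (1.69), RSBN1 (1.59), the Eph receptor EPHA7 (1.52), the BMP-binding proteins TWSG1 (1.40) and CRIM1 (1.39), VSTM4 (1.38) and the growth hormone receptor GHR (1.34). EPHA7 and GHR varied most among their siMESH1 arrays, which read -0.15, -0.47 and -0.90 for EPHA7 and 0.28, 0.69 and -0.15 for GHR. Arrays without overlap were a condition for naming this group, so their separation from siATF4 was fixed by the choice.

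On the other side, LAMB3, the β3 chain of laminin-332 in the basement membrane, gave the largest difference of all. It read -1.52, -1.47 and -1.43 in siMESH1 and 0.90, 0.99 and 1.11 in siATF4. All siMESH1 arrays were below the control and all siATF4 arrays above it, a difference of -2.47 (5.54-fold, 95% interval -2.63 to -2.31, adjusted p = 8.9e-10). SPARC, a collagen-binding matricellular protein, read 0.30, 0.35 and 0.16 in siMESH1 and 2.45, 2.44 and 2.29 in siATF4. Here the siMESH1 arrays were not called against the control, the siATF4 arrays were called above it, and the direct difference was -2.12 (adjusted p = 2.5e-08), with -2.19 and -2.06 on its separate probe sets.

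PAQR3, a Golgi membrane protein, showed the opposite arrangement. It read -2.15, -2.34 and -2.25 in siMESH1 and -0.037, -0.28 and -0.15 in siATF4, so that siATF4 stayed near the control and siMESH1 was lower by 4.27-fold (-2.10, adjusted p = 8.9e-10). SFXN1, a mitochondrial serine transporter, was arranged in the same manner (-2.001, -1.93 and -1.92 in siMESH1, 0.038, -0.20 and -0.044 in siATF4), with a difference of -1.88 (adjusted p = 1.4e-09). The other genes were the Fc receptor FCGR2A (-2.10), endothelin 2 EDN2 (-2.07), LYPD1 (-1.85), the TLR4 partner LY96 (-1.83), the chemokine CXCL6 (-1.80), filaggrin FLG (-1.71), annexin ANXA3 (-1.66), the secreted glycoprotein STC2 (-1.60), the interferon-induced gene IFI27 (-1.59), the p97 cofactor UBXN2B (-1.58) and the lectin SIGLEC15 (-1.57). Of the 15 genes, 10 were called below siNT in siMESH1 and 11 above siNT in siATF4.

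**Figure D2:**
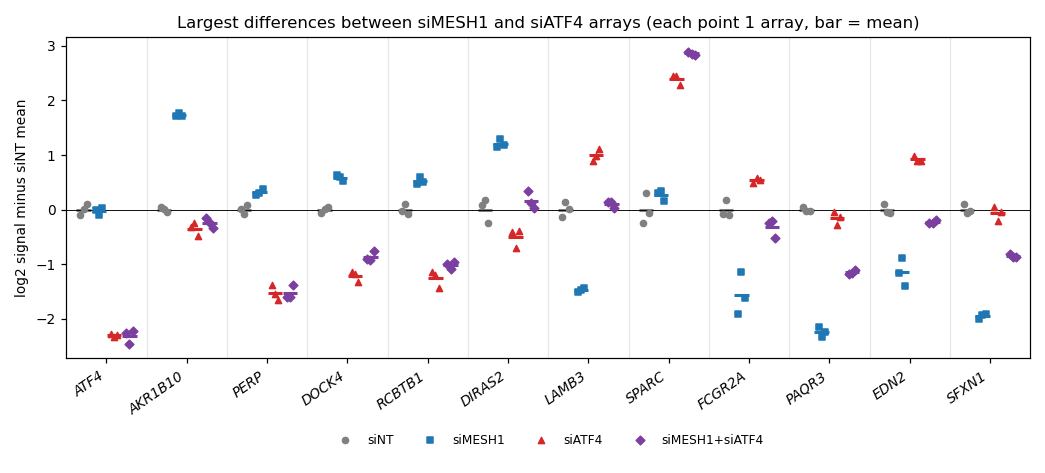
The log2 signal relative to the siNT mean is plotted for the 6 largest differences in each direction, with a point for each array and a bar for each group mean (3 arrays). ATF4 and PERP separated through low siATF4 arrays, AKR1B10 through high siMESH1 arrays, PAQR3 and SFXN1 through low siMESH1 arrays, and LAMB3, FCGR2A and EDN2 through movement on both sides of the control.

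The siNT arrays were then used to place the 1036 genes. These placements share arrays with the direct comparison and are a description. Of the 468 genes higher in siMESH1, 132 were called above siNT in siMESH1 alone, 128 below siNT in siATF4 alone and 12 in both ways at once. Another 186 were called against siNT in neither group. Of the 568 genes lower in siMESH1, 245 were called below siNT in siMESH1 alone, 108 above siNT in siATF4 alone, 17 in both ways at once and 166 in neither. Against siNT, 337 genes (2.82%) were called higher and 643 (5.37%) lower in siMESH1, 8.19% in all. In siATF4, 298 (2.49%) were called higher and 482 (4.03%) lower, 6.52% in all. The former became 2287 higher and 298 lower on the housekeeping scale, and the latter 614 and 335.

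For 29 genes the silencings went opposite ways from the control. Those 12 that siMESH1 raised and siATF4 lowered were led by DOCK4, RCBTB1, DIRAS2, KANSL1L and ANKRD46. KANSL1L read 0.71, 0.74 and 0.79 in siMESH1 and -0.49, -0.59 and -0.56 in siATF4, and ANKRD46 read 0.68, 0.80 and 0.61 and -0.43, -0.55 and -0.59. Neither overlapped, and the differences were 1.29 and 1.22. Opposite calls against siNT were the condition for this group of genes, so a gap between the silencings was fixed by the choice. The 17 that siMESH1 lowered and siATF4 raised were led by LAMB3, FCGR2A, EDN2, LYPD1 and CXCL6. EDN2, a vasoconstrictor peptide, read -1.16, -0.88 and -1.41 in siMESH1 and 0.98, 0.88 and 0.89 in siATF4, which placed its groups on either side of the control at about the same distance.

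The integrated stress response regulators were split between the silencings. Of 20 measured, 3 were higher in siMESH1 and 5 lower, which is 40.0% called against 8.66% of all genes. This list, like the others, was written with earlier results of these data known, and it counts ATF4, the silenced target. The median difference was -0.15, and it changed sign to 0.033 on the housekeeping scale. STC2, which is induced by ER stress, read -0.34, -0.32 and -0.35 in siMESH1 and 1.29, 1.27 and 1.24 in siATF4. It was tight within each group and lower in siMESH1 by -1.60 (SE 0.0486, adjusted p = 8.9e-10). TNFRSF10B, the death receptor DR5, read -0.78, -0.80 and -0.84 in siMESH1 and 0.26, 0.22 and 0.21 in siATF4. TRIB3, a pseudokinase downstream of ATF4 and CHOP, read -0.95, -0.96 and -0.92 in siMESH1 and -0.13, -0.0012 and -0.059 in siATF4. Both were below the control in every siMESH1 array and were not called against siNT in siATF4, with differences of -1.04 and -0.88 (adjusted p = 1.6e-08 and 1.2e-07).

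DDIT3, which encodes CHOP, read -0.12, -0.12 and -0.14 in siMESH1 and 0.40, 0.59 and 0.40 in siATF4. The groups did not overlap and the difference was -0.59 (adjusted p = 1.1e-05), but it was -0.41 and not called on the housekeeping scale. ATF3, a stress-induced repressor, did not separate the silencings. It read 0.37, 0.34 and 0.37 in siMESH1 and 0.27, 0.41 and 0.19 in siATF4, with overlapping arrays and a difference of 0.070 (95% interval -0.096 to 0.24, adjusted p = 0.55). The 3 regulators higher in siMESH1 were ATF4 itself, the stress-induced cofactor NUPR1 (0.997) and KLHL24 (0.59), the last 2 of which were named after their values were seen.

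Of 22 genes that make or carry amino acids under ATF4, 2 were higher in siMESH1 and 1 lower (13.6%, against 8.66% of all genes). The median difference was 0.090. On the housekeeping scale these became 4 and 1. ASNS, asparagine synthetase, read -0.34, -0.38 and -0.33 in siMESH1 and -1.14, -1.24 and -1.20 in siATF4. Every array was below the control, the siATF4 arrays more so, and the difference was 0.84 (SE 0.0688, adjusted p = 1e-06). CTH, cystathionine gamma-lyase of the transsulfuration pathway, read 0.67, 0.80 and 0.61 in siMESH1 and -0.13, -0.22 and -0.22 in siATF4. It was above the control only in siMESH1, by 0.89 over siATF4 (adjusted p = 5.4e-06). SLC7A5, the light chain of the LAT1 transporter of large neutral amino acids, went the other way, with -0.44, -0.46 and -0.50 in siMESH1 and 0.30, 0.47 and 0.50 in siATF4 and a difference of -0.89 (adjusted p = 1e-07). The glutamine transporter SLC38A1 differed by 0.41 and was not called, but was called at 0.60 on the housekeeping scale.

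The cytosolic aminoacyl-tRNA synthetases, which charge tRNAs, gave 0 higher and 1 lower call of 17 (5.88%, against 8.66% of all genes). Their median was 0.12. YARS1, IARS1 and TARS1 were called below siNT in siATF4 and not in siMESH1, but their direct differences of 0.46, 0.43 and 0.43 stayed under the fold minimum. On the housekeeping scale they were 0.64, 0.61 and 0.61 and the list held 4 higher and 0 lower. The call lost there was WARS1, the tryptophanyl enzyme (-0.57, -0.38 on the housekeeping scale), which interferon also induces.

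ER chaperones and genes of ER-associated degradation gave 0 higher and 3 lower calls of 23 (13.0%, against 8.66% of all genes). Their median was -0.27 (2 higher and 1 lower, median -0.082, on the housekeeping scale). DNAJB9, an ER co-chaperone, read -0.37, -0.28 and -0.30 in siMESH1 and 0.47, 0.43 and 0.46 in siATF4. Its groups lay on either side of the control, -0.77 apart (adjusted p = 4.5e-07), although its probe sets gave -1.25 and -0.29. PDIA4, a disulfide isomerase, was lower in siMESH1 by -0.65 and DERL1, part of the retrotranslocation channel, by -0.54. Both calls were lost on the housekeeping scale, and that of DERL1 also without siMESH1 replicate 3 (-0.498). HERPUD1, a component of the degradation complex, read 0.56, 0.54 and 0.43 in siMESH1 and 0.083, 0.047 and 0.097 in siATF4. It did not overlap, but at 0.43 it was not called on the deposited scale (0.62, called, on the housekeeping scale). XBP1, the IRE1 branch factor, differed by 0.12 (95% interval 0.0039 to 0.24, adjusted p = 0.11).

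**Figure D3:**
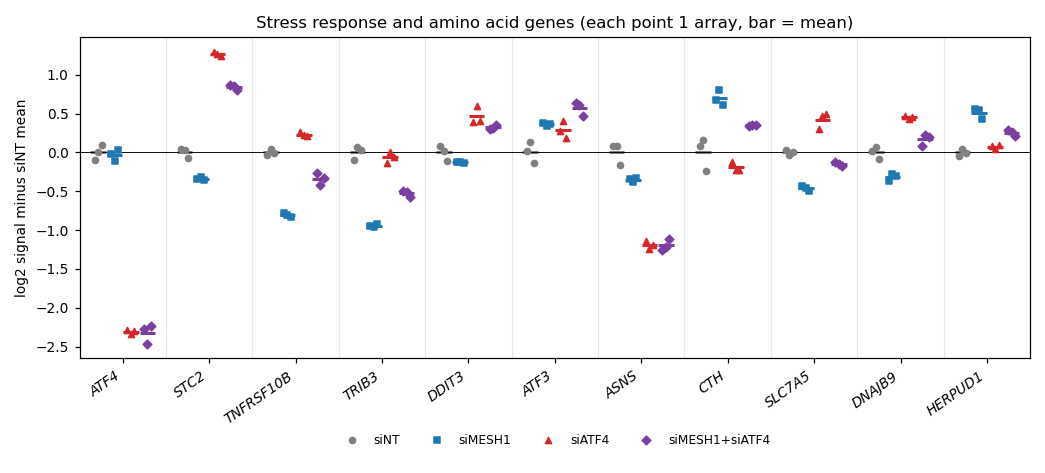
The log2 signal relative to the siNT mean is plotted for genes of the stress response, amino acid metabolism and ER folding, with a point for each array and a bar for each group mean (3 arrays). STC2, TNFRSF10B, TRIB3, DDIT3, SLC7A5 and DNAJB9 were lower in siMESH1 than in siATF4, ATF4, ASNS and CTH were higher, and ATF3 overlapped.

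Since ATF4 acts on C/EBP-ATF response elements, the promoters were read for the letters TGATGNAA on either strand. RefSeq promoters on GRCh38.p14, from 250 bases before to 50 bases after a gene's start, were matched to 9562 of the 11963 genes. The element was found in 3.67% of all 27305 promoters and in 2.25% of those of the genes tested. It was in 6 of 18 promoters of the amino acid list (33.3%) and in 5 of 14 of the synthetases (35.7%). Among the genes that separated the silencings, it was in 7 of 394 (1.78%) of those higher in siMESH1 and in 6 of 461 (1.30%) of those lower. Of the promoters of genes higher in siMESH1 whose siATF4 arrays were called below siNT, 3 of 122 (2.46%) held it. The windows below, 30 bases in the direction of the gene with the element or its reverse complement in capitals, belong to genes whose values are given in the text and are shown to set the element beside them.
ASNS (chr7:97872458-97872487, strand -): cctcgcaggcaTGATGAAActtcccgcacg
SLC38A1 (chr12:46266502-46266531, strand -): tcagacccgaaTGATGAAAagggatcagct
GHR (chr5:42423203-42423232, strand +): aacttgattgtTGATGGAAaggcaatattt
HERPUD1 (chr16:56931955-56931984, strand +): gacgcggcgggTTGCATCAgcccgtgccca
ATF3 (chr1:212565205-212565234, strand +): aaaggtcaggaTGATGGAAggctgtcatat
GBP1 (chr1:89065264-89065293, strand -): gcttctaaataTTTCATCAatgaggaaatc

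The element lay at -68 from the start of ASNS and at -225 from that of GHR, both called lower in siATF4. SLC38A1 (-4), HERPUD1 (-176) and ATF3 (-191) were not called in the direct comparison, and the interferon-induced GTPase GBP1 (-74) was higher in siATF4. These are matches of letters and not sites of binding.

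Genes of the cell cycle were low in both silencings, and the direct differences among them were mostly small. Of 56 genes of the cell cycle and mitosis, 54 were called below siNT in siMESH1 and 52 in siATF4, with median differences from siNT of -1.73 and -1.41. Of 45 genes that replicate DNA or supply nucleotides, 39 were called below siNT in each, with medians of -1.13 and -0.94. Fewer dividing cells and less of these RNAs per cell cannot be told apart in such bulk samples. Directly, 7 cell cycle genes (12.5%) were lower in siMESH1 and 0 higher, with a median of -0.19. For replication (11.1% called) 4 were lower and 1 higher, the uracil glycosylase UNG (0.55, named after its value was seen), also with a median of -0.19. Among all genes tested 8.66% were called, and 4.75% were called lower. On the housekeeping scale the medians were -0.0022 and -0.0077 and the calls fell to 1 and 2.

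RRM2, the regulatory subunit of ribonucleotide reductase, was the exception in size. It read -3.66, -3.38 and -3.41 in siMESH1 and -1.88, -2.07 and -1.97 in siATF4. All 6 arrays were far below the control, and those of siMESH1 were lower by a further -1.51 (2.84-fold, 95% interval -1.73 to -1.29, adjusted p = 2e-07), with -1.87 and -1.14 on its separate probe sets. SHCBP1, a protein of the cytokinesis midbody, read -2.90, -2.90 and -2.84 in siMESH1 and -1.70, -2.28 and -2.05 in siATF4, a difference of -0.87 (adjusted p = 0.00017). NDC80, of the kinetochore, differed by -0.89. GINS1 (-0.68) and CDC45 (-0.65), which belong to the replicative helicase, and the mitotic kinesin KIF2C (-0.61) lost their calls on the housekeeping scale.

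DLGAP5, a spindle protein, showed no such gap. It read -2.44, -2.40 and -2.49 in siMESH1 and -2.18, -2.53 and -2.24 in siATF4, with overlapping arrays and a difference of -0.13 that turned to 0.056 on the housekeeping scale (95% interval -0.35 to 0.096, adjusted p = 0.4). The centromere protein CENPU differed by -0.40 (95% interval -0.63 to -0.16) and the mitotic kinase PBK by -0.50 (95% interval -0.70 to -0.29), just under the minimum. The cell cycle regulators CDK2 (-0.026, 0.16 on the housekeeping scale) and E2F1 (-0.21, adjusted p = 0.12) were not called. The letters TTTGAA of the cell cycle homology region, on either strand, were in 29 of 45 promoters of the cell cycle list (64.4%) and in 10.98% of those of all genes tested, but in 11.3% of the promoters of genes lower in siMESH1. The promoters of SHCBP1 and DLGAP5, which both silencings lowered and of which 1 separated them, are shown as examples, with those letters in capitals.
SHCBP1 (chr16:46621348-46621377, strand -): cgtccgcggaaaTTTGAAatggctgacggg
DLGAP5 (chr14:55191565-55191594, strand -): cggtgcggcaagTTTGAAtttcgtggaggc

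Over all genes called below siNT in both silencings (255, a choice that uses the shared siNT arrays), 34 differed directly, 28 of them lower in siMESH1, and the median direct difference was -0.16. For 172 the 95% interval of the direct difference lay within 0.5 of 0 on either side. Of 65 genes called above siNT in both, 8 differed directly, 4 each way, and 50 had such an interval. Of the largest shared rises, PLA2G4C, a cytosolic phospholipase A2, read 0.64, 0.63 and 0.64 in siMESH1 and 1.79, 1.91 and 1.99 in siATF4. The phospholipase PLA1A read 0.70, 0.59 and 0.45 and 1.59, 1.95 and 1.61. Both were higher in siATF4, with differences of -1.26 and -1.14. LGSN, a relative of glutamine synthetase, was higher in siMESH1 by 0.94, and DENND5B, a RAB regulator, overlapped (-0.32, adjusted p = 0.11).

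The called inflammatory, interferon and complement genes were mostly lower in siMESH1 than in siATF4. Of 23 cytokines and NF-kB targets 9 were lower and 2 higher (47.8%, against 8.66% of all genes, median -0.34). Of 29 interferon response genes 11 were lower and 0 higher (37.9%, median -0.31). Of 20 genes of innate sensing and complement 6 were lower and 0 higher (30%, median -0.17). On the housekeeping scale the lower and higher calls were 4 and 2, 6 and 1, and 3 and 0, with medians of -0.16, -0.13 and 0.016. Against siNT, the cytokine list held 7 higher and 2 lower calls in siATF4 and 1 higher and 2 lower in siMESH1.

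CXCL6, a neutrophil chemokine, read -0.85, -0.64 and -0.68 in siMESH1 and 1.07, 1.01 and 1.15 in siATF4. It was below the control in every siMESH1 array and above it in every siATF4 array (-1.80, adjusted p = 5.5e-09). IL6 read -0.0019, 0.15 and 0.19 in siMESH1 and 1.09, 1.06 and 1.17 in siATF4, and the chemokine CXCL2 read -0.25, -0.28 and -0.20 and 0.73, 0.77 and 0.50. Both were called above siNT in siATF4 alone, with differences of -0.99 and -0.91 (adjusted p = 1.3e-07 and 1.1e-06). The adhesion receptor VCAM1 was an exception, reading -0.48, -0.45 and -0.43 in siMESH1 and -0.96, -1.01 and -0.996 in siATF4, and was higher in siMESH1 by 0.53. So was TNFAIP6 (0.82), which was named after its value was seen.

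ISG20, an interferon-induced exonuclease, read -0.38, -0.90 and -0.58 in siMESH1 and 0.51, 0.72 and 0.66 in siATF4, a difference of -1.25 (adjusted p = 1.8e-06). IFI27 varied more, with -0.43, -0.59 and 0.14 in siMESH1 and 1.23, 1.53 and 1.13 in siATF4 (-1.59, adjusted p = 1.3e-05). It was named among the largest lower differences, for which no overlap was a condition. GBP1 differed by -0.87, the immunoproteasome subunit PSMB9 by -0.69 and the transcription factor IRF7 by -0.60, the last without a call on the housekeeping scale (-0.41).

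Complement C3, the central component of the cascade, read -0.98, -1.003 and -1.13 in siMESH1 and 0.40, 0.57 and 0.49 in siATF4. The groups lay on either side of the control, -1.52 apart (SE 0.0697, adjusted p = 9.2e-09). LY96, which presents lipopolysaccharide to TLR4, read 0.33, 0.65 and 0.32 in siMESH1 and 2.12, 2.44 and 2.21 in siATF4, high in the latter (-1.83, adjusted p = 7.7e-07). The proteases C1S (-0.70) and C1R (-0.62, -0.44 and not called on the housekeeping scale) start the classical pathway. Of 20 phospholipases and genes of prostaglandin synthesis 3 were lower and 0 higher, the phospholipases above and PTGS2, the inducible cyclooxygenase (-0.94), with a list median of -0.064. Called members made up 15% of that list, against 8.66% of all genes.

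Hypoxia and glycolysis genes also separated the silencings in this direction. VHL-deficient renal carcinoma cells keep hypoxia-inducible factors active, so these genes are not silent in such cells. Of 36 measured, 11 were lower in siMESH1 and 0 higher (30.6%, against 8.66% of all genes). The median was -0.32 (6 and 0, median -0.13, on the housekeeping scale). Against siNT, 13 were called lower in siMESH1 and 3 in siATF4. CA12, a carbonic anhydrase, read -1.62, -1.62 and -1.58 in siMESH1 and -0.044, -0.059 and -0.036 in siATF4. It remained at the control in siATF4 and was lower in siMESH1 by -1.56 (SE 0.0549, adjusted p = 1.4e-09). CCND1, cyclin D1, was below the control in both but further in siMESH1 (-1.99, -1.95 and -1.84 against -0.52, -0.77 and -0.59), a difference of -1.30 (adjusted p = 9.4e-08). The vasoactive peptide adrenomedullin ADM differed by -1.02 and INSIG2, an ER brake on sterol synthesis, by -0.92. VEGFA read -0.66, -0.64 and -0.64 in siMESH1 and -0.14, -0.13 and -0.087 in siATF4. At -0.53 it was called (adjusted p = 3.3e-05), and at -0.35 on the housekeeping scale it was not.

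More genes of the NADPH and NRF2 list were called higher than lower in siMESH1. NRF2 is the transcription factor of the antioxidant response, and several of its targets make or use NADPH, the substrate of MESH1. Of 28 measured, 5 were higher in siMESH1 and 1 lower (21.4%, against 8.66% of all genes). The median was 0.18 (10 and 1, median 0.36, on the housekeeping scale). With probe sets of unshared sequence alone, 21 members remained, of which 2 were higher and 1 lower, with a median of 0.084. Against siNT, 5 were called higher and 1 lower in siMESH1, and the median was 0.032 in siMESH1 and -0.14 in siATF4. TXNRD1, thioredoxin reductase, read 0.78, 0.69 and 0.64 in siMESH1 and -0.21, -0.21 and -0.18 in siATF4. AKR1C3, an aldo-keto reductase of steroids and prostaglandins, read 0.52, 0.54 and 0.46 and -0.44, -0.45 and -0.55. Both were above the control in siMESH1 and below it in siATF4, by 0.90 and 0.99 between groups (adjusted p = 4.1e-08 and 2.2e-08).

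The AKR1C genes are close copies of each other, so their separate values are uncertain. KEAP1, which holds NRF2 for degradation, was the lower gene, with -0.85, -0.86 and -0.79 in siMESH1, -0.083, -0.063 and -0.052 in siATF4 and a difference of -0.77 (adjusted p = 6.3e-08). The quinone reductase NQO1, named after its value was seen, differed by -0.48 (adjusted p = 1.7e-05), under the fold minimum. NADK, the kinase that makes NADP from NAD, was not called (0.25, adjusted p = 0.0033), and its probe sets ranged from 0.080 to 0.44. The letters TGACNNNGC of the antioxidant response element, on either strand, were in 14.9% of the promoters of genes tested, 14.7% of those higher in siMESH1 and 19.1% of those lower. None of the letter patterns searched contains another. The promoter of TXNRD1 held such letters at -99 from its start and is shown as the called member of this list with a match.
TXNRD1 (chr12:104215670-104215699, strand +): acacgggctaTGACTTCGCtgttgtcaccg

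Iron and lipid genes held fewer but sizeable differences. Of 20 genes of ferroptosis and iron handling, 2 were higher and 1 lower in siMESH1 (15%, against 8.66% of all genes). Housekeeping centring gave 4 and 1. Probe sets of unshared sequence alone left 12 members, of which 0 were higher and 1 lower. TFRC, which imports iron, read -1.19, -1.12 and -1.20 in siMESH1 and -0.020, 0.045 and 0.075 in siATF4, at the control in the latter and lower in siMESH1 by -1.20 (adjusted p = 3.1e-09). ACSL4, an acyl-CoA synthetase that prepares polyunsaturated fatty acids for membrane lipids, read 0.66, 0.81 and 0.59 in siMESH1 and -0.21, -0.55 and -0.48 in siATF4. It lay on either side of the control, with a difference of 1.10 (adjusted p = 2.3e-05). The ferrireductase STEAP3 was higher in siMESH1 by 0.53. ACLY, which makes cytosolic acetyl-CoA for lipid synthesis, read -1.46, -1.41 and -1.48 in siMESH1 and -0.39, -0.38 and -0.27 in siATF4. It was lower in siMESH1 by -1.10 (adjusted p = 7.6e-09), over a range of -1.63 to -0.75 on its probe sets. In the list of 26 sterol and fatty acid synthesis genes, 1 was higher, ACSL4, and 2 lower, ACLY and the sterol isomerase EBP (-0.56, not called on the housekeeping scale), with a median of -0.19. Called members made up 11.5% of that list, against 8.66% of all genes. Probe sets of unshared sequence alone left 17 of its members, of which 0 were higher and 1 lower.

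Cilium genes had the highest median of the 30 lists, 0.19. Of 33 measured, 10 were higher in siMESH1 and 1 lower (33.3%, against 8.66% of all genes). On the housekeeping scale, where 1026 of all 11963 genes were called higher and 302 lower, the list held 13 and 0. DYNC2LI1, a light intermediate chain of the dynein of intraflagellar transport, read 0.91, 0.82 and 0.78 in siMESH1 and -0.057, -0.082 and -0.16 in siATF4. IFT57, of the IFT-B complex, read 0.41, 0.46 and 0.45 and -0.27, -0.55 and -0.52, and the kinesin subunit KIF3B read 0.41, 0.42 and 0.41 and -0.17, -0.15 and -0.16. Each was above the control in siMESH1 and below it in siATF4 in every array, with differences of 0.94, 0.89 and 0.57 (adjusted p = 5.5e-08, 6.5e-07 and 1.2e-06). The lower gene was the tubulin TUBB4B (-0.57, -0.39 and not called on the housekeeping scale).

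Histone genes gave 4 higher and 0 lower calls of 17 (23.5%, against 8.66% of all genes), with a median of 0.045. H2BC12 read 1.42, 1.45 and 1.51 in siMESH1 and 0.41, 0.59 and 0.63 in siATF4, above the control in both and higher in siMESH1 by 0.92 (adjusted p = 1.6e-07). H2AC6 was called above siNT in siMESH1 alone, by 0.97 over siATF4. The call of H2BC5 (0.53) was lost without siMESH1 replicate 3 (0.47) and without siATF4 replicate 2 (also 0.47). Histone genes are close copies, so these values are uncertain between members. In the circadian clock list (11.8% called), 2 of 17 were higher, BMAL2 and the nuclear receptor NR1D2 (0.88), and 0 lower.

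Adhesion, matrix and cytoskeletal genes moved in both directions. Of 31 keratins, junction and adhesion genes 2 were higher, PERP and the tight junction protein TJP1 (0.57), and 6 lower, with a median of -0.17 (4 and 4, median 0.017, on the housekeeping scale). Called members made up 25.8% of the list, against 8.66% of all genes. The mucin MUC1 read -0.87, -1.04 and -0.87 in siMESH1 and 0.43, 0.54 and 0.42 in siATF4, and the keratin KRT18 read -0.48, -0.61 and -0.52 and 0.39, 0.54 and 0.55. Both were below the control in siMESH1 and above it in siATF4, by -1.39 and -1.03 between groups (adjusted p = 1.1e-08 and 1e-07). Of 37 matrix and TGF-beta genes (16.2% called), 5 were lower and 1 higher (5 and 3 on the housekeeping scale), with a median of -0.047. MMP1, an interstitial collagenase, read -2.58, -2.19 and -2.40 in siMESH1 and -0.92, -0.73 and -1.16 in siATF4, below the control in both and lower in siMESH1 by -1.46 (adjusted p = 5.3e-07). The lysyl oxidase LOX differed by -0.81 and the urokinase receptor PLAUR by -0.73.

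In the contractile list (15.8% called, against 8.66% of all genes), 1 gene of 19 was higher and 2 lower (3 and 1 on the housekeeping scale). CNN1, calponin of smooth muscle, read 0.51, 0.10 and 0.0037 in siMESH1 and 1.44, 1.74 and 1.71 in siATF4, a difference of -1.42 (adjusted p = 3.2e-06). Caldesmon CALD1 (0.84) and tropomyosin TPM1 (-0.61) cannot be given a direction for the gene as a whole. Their probe sets ranged from -0.40 to 1.86 and from -1.38 to 1.08, and with probe sets of unshared sequence alone TPM1 stood at 1.08, while its call was lost on the housekeeping scale (-0.43). Of 20 YAP and TAZ targets 1 was higher, CRIM1, and 2 lower, the TAZ gene WWTR1 (-1.16, -1.26 and -1.13 in siMESH1, -0.057, -0.21 and -0.26 in siATF4, -1.01) and the ectonucleotidase NT5E (-0.54, not called on the housekeeping scale, where 2 were higher and 1 lower). Called members made up 15% of the YAP and TAZ list. The probe sets of WWTR1 ranged from -1.31 to -0.42.

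Of 21 genes of renal tubule identity, 1 was higher and 2 lower in siMESH1 (14.3%, against 8.66% of all genes), with a median of 0.040. KL, the ageing-related co-receptor of FGF23, read -0.50, -0.51 and -0.49 in siMESH1 and 0.98, 0.62 and 0.60 in siATF4, on either side of the control (-1.24, adjusted p = 5.3e-07). The bicarbonate transporter SLC4A4 was lower by -0.83 and the phosphate transporter SLC17A1 higher by 0.62. Among 17 Eph receptors and ephrins, 2 were higher, EPHA7 and EPHB1 (0.77), and 1 lower, EPHA2 (-0.59, -0.40 and not called on the housekeeping scale, where 4 were higher and 0 lower). Of 19 granins and neuroendocrine genes, 2 were higher, SCG2 and RTN2 (0.57), and 3 lower, among them the neuronal enolase ENO2 (-1.01). Called members made up 17.65% of the Eph list and 26.3% of the granin list.

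Of 21 ERK feedback genes, 5 were lower and 0 higher (23.8%), although the list median was 0.022, and on the housekeeping scale 1 was lower and 4 higher. PHLDA1 read -0.35, -0.31 and -0.28 in siMESH1 and 0.37, 0.42 and 0.39 in siATF4, on either side of the control (-0.71, adjusted p = 1.5e-07), and was the call that remained there. IER3 (-0.65), EPHA2 and the AP-1 member FOSL1 (-0.56) lost theirs. The probe sets of PHLDA1 ranged from -0.89 to -0.30. Of 31 genes of autophagy and the lysosome, 1 was higher, the initiating kinase ULK1 (0.63, 0.65 and 0.52 in siMESH1, -0.36, -0.33 and -0.31 in siATF4, 0.93), and 3 lower, led by the autophagy receptor OPTN (-1.21). On the housekeeping scale 3 were higher and 1 lower. The separate probe sets of OPTN gave -1.97 and -0.45. Of 17 p53 targets, 1 was higher, ZMAT3 (0.97), and 1 lower, TNFRSF10B. Called members made up 12.9% of the autophagy list and 11.8% of the p53 list, against 8.66% of all genes.

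Few calls fell among the genes of translation and respiration, against 8.66% of all genes tested. Of 43 cytosolic ribosomal proteins 0 were called by limma and 0 by the methods' t-test with the same minimum, with a median of -0.015, although 7 had an unadjusted limma p under 0.05 and 5 an adjusted p under 0.05. The smallest adjusted p values were those of RPS28 (-0.21, adjusted p = 0.0021), RPL12 (-0.21, adjusted p = 0.0073) and RPLP2 (-0.40, adjusted p = 0.0082), all under the fold minimum. Of 77 genes of the mitochondrial ribosome and respiratory chain, 2 were lower (2.60%, median -0.11), the complex III subunit UQCRQ (-0.73) and MRPL40 (-0.56, not called on the housekeeping scale).

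**Figure D4:**
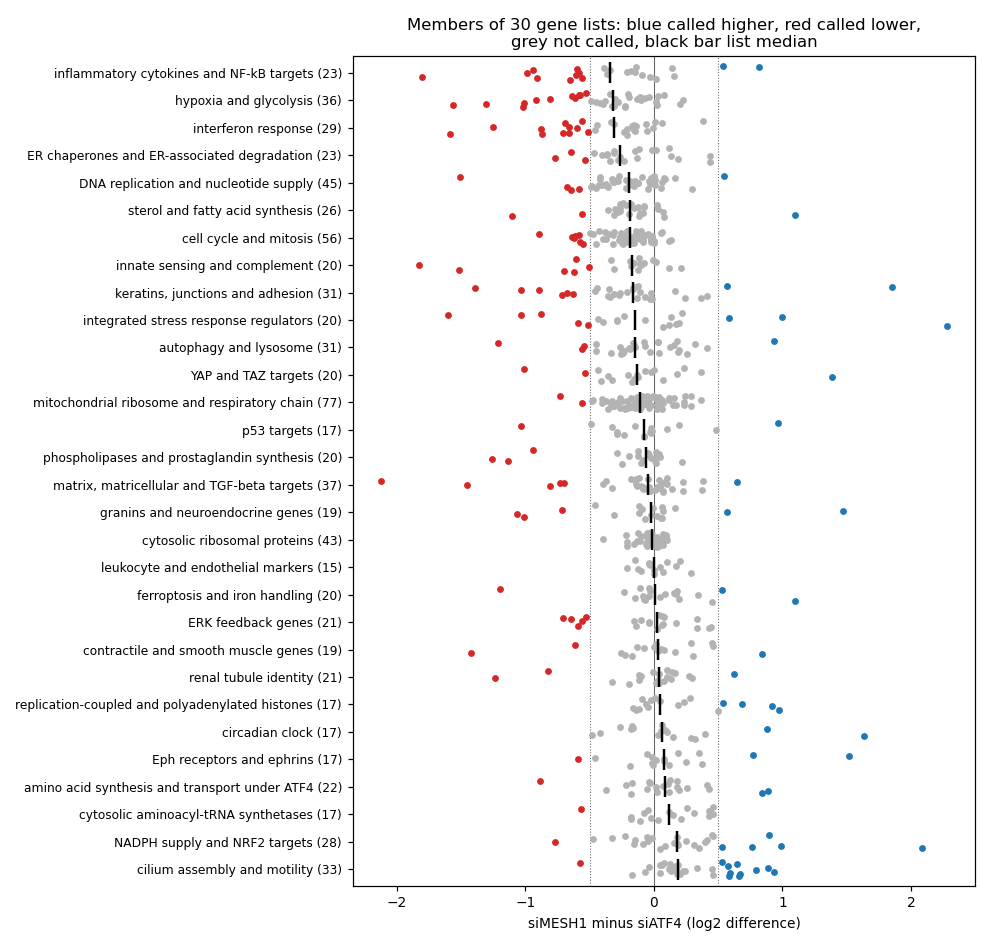
Each point is a member of 1 of 30 gene lists, placed at its log2 difference between siMESH1 and siATF4, with the number measured in brackets. Blue members were called higher in siMESH1, red lower and grey not, black bars are list medians and dotted lines mark differences of 0.5. The lists of cytokines, hypoxia and interferon lie lowest, at medians of -0.34, -0.32 and -0.31, and the cilium list highest, at 0.19.

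The siMESH1+siATF4 arrays were set beside the genes that separated the silencings. How the 40 pmol of siRNA was divided between the targets in these cultures is not given in the sources used here. For 328 of the 468 genes higher in siMESH1 (70.1%) and 361 of the 568 lower (63.6%), the mean of the combined silencing lay between the single silencings and nearer siATF4. It lay nearer siMESH1 for 67 and 98. Among genes that siMESH1 alone had moved from siNT, those nearer siATF4 were 92 of 132 higher and 169 of 245 lower. Among those that siATF4 alone had moved, the combined arrays lay below both for 36 of 128 higher, and above both for 53 of 108 lower. AKR1B10 read -0.15, -0.25 and -0.34 in the combined arrays, close to siATF4. SPARC read 2.89, 2.86 and 2.84, above either single silencing. SCG2 (2.13, 2.19 and 2.12) and RRM2 (-3.30, -3.63 and -3.36) lay close to siMESH1.

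**Figure D5:**
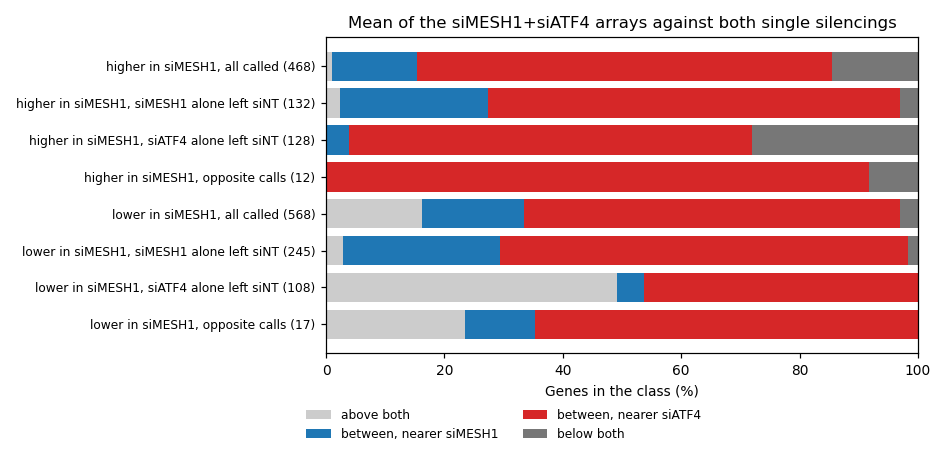
Bars give the share of genes (%) whose mean in the siMESH1+siATF4 arrays lay above both single silencings, between them and nearer siMESH1, between them and nearer siATF4, or below both, for each class of called genes with its size in brackets. In 7 of the 8 classes the share nearer siATF4 was the largest, from 63.6% to 91.7%, and for genes that siATF4 alone raised the share above both was 49.1%.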

How the data were processed

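RNA of 12 RCC4 cultures, 3 in each of 4 groups, was measured on Affymetrix human arrays. The authors made log2 signals with RMA in Affymetrix Expression Console (versions not given in the sources used here) and deposited them relative to the siNT mean of each probe set, so a difference between silencings does not depend on the control. RMA draws all arrays to 1 distribution of signals, which removes a common shift of all genes. Of 22277 probe sets, 19064 had exactly 1 gene symbol in the platform annotation and were averaged into 11963 genes. No gene was filtered on its level, which the table does not hold, and 0 columns were left without a sample. Limma 3.58.1 in R 4.3.3 was fitted to all 12 arrays with a mean for each group (8 residual degrees of freedom) and was tested on simulated data. The number of arrays limits the precision. Genes were named by a rule: ATF4, HDDC3 and the genes the study discusses, the 15 largest called differences in each direction without overlap, up to 4 members of each of 30 lists with the smallest adjusted p, and the 5 largest opposite and shared changes in each direction. Some items are not reported here. The members, lists and rule were chosen with earlier results of these data known. Scaling, probe set handling, the variance model, the fold minimum and left-out arrays were varied. Promoters came from RefSeq on GRCh38.p14.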

Additional observations from a re-analysis of the deposited data

Results flagged for a closer look

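Signals outside the genes named above also separated the silencings. Of 3151 probe sets without exactly 1 gene symbol, 194 were called by the same limma rule between siMESH1 and siATF4 (6.16%, against 8.66% of the genes), 85 higher and 109 lower in siMESH1. They were not assigned to genes.

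The 18 hybridisation spike-in probe sets, which are added to each sample before it is put on the array, averaged 0.31, 0.28 and 0.15 in the siATF4 arrays (mean 0.25), against -0.027, -0.039 and 0.066 in the siNT arrays and 0.025, -0.061 and -0.034 in the siMESH1 arrays. The siATF4 arrays lay above all arrays of both other groups. The part of this offset in the gene differences was not tested.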

How the results depend on the processing

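The 1036 calls were 1035 with the 6 arrays of both silencings alone, 1042 with array median centring, 1041 with medians of probe sets, 1036 with a robust variance prior and 1028 with the methods' t-test (973 after Benjamini-Hochberg). Without the fold minimum there were 4004, with a minimum of 1 there were 165, and on single probe sets 1790. Housekeeping centring gave 1328 calls, 770 of them shared in direction with the 1036, 1099 without TFRC among the housekeeping genes and 1232 without TFRC and YWHAZ. For siMESH1 against siNT it gave 2585 in place of 980. Leaving out each replicate in turn gave 1037 to 1080 calls directly, 984 to 1023 for siMESH1 against siNT and 778 to 815 for siATF4 against siNT, and 136 to 143 called list members in place of 136. Without probe sets that may share sequence between transcripts, 8361 genes remained with 757 calls, and 89 list members were called. Of the 1036 calls, 665 (64.2%) were kept in direction. Among 155 named genes, 104 kept direction and call, 1 turned, 1 gained and 1 lost its call. The rest had no probe set left, so their values may include signal of related transcripts. Among named genes the direction turned for CDK2 (0.16 with housekeeping centring, 0.065 without TFRC, 0.13 without TFRC and YWHAZ, 0.049 with medians of probe sets), DLGAP5 (0.056 with housekeeping centring, 0.023 without TFRC and YWHAZ) and TPM1 (1.08 without shared-sequence probe sets). The mean of the spike-ins differed by -0.27 between the silencings, and their median by -0.30. The replicate numbers did not pair the arrays (correlations of deviations -0.19, 0.090 and -0.11), and with the replicate number as a block 1036 genes were called directly. Depth has no counterpart on these arrays, and signal over background is not in the table.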
